A study of Mus musculus with 2 samples.

Results

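Chemokines and chemokine receptors were examined in brain mononuclear cells of CD47 KO and WT mice. The family was taken as 42 genes chosen by name, 29 ligands and 13 receptors, and 41 of them had a probe set (a group of short probes that match 1 transcript) that the annotation of the array gives to that gene alone. These 41 genes, out of 18194 named genes on the array, had 68 probe sets. *Ccl19* has no probe set of its own in the annotation. The CD47 KO pool held RNA of 6 *Cd47*-null mice aged 12 to 16 wks, and the WT pool held RNA of 7 wild-type mice aged 10 to 15 wks. Each pool came from cells that had been released from whole brain with collagenase and DNase at 37°C and had gathered between the lower layers of a Percoll gradient. Each was amplified from 20 ng of RNA and hybridised to 1 array, so animals were pooled and no difference below has a p-value or an error between animals. The null allele is carried by every cell of the KO mice, and the preparation is a mixture in which fewer cells of a type and less RNA per cell cannot be told apart.

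Chemokines are small secreted proteins that guide cells along a gradient. They are named by the spacing of their first cysteines (CC, CXC, CX3C and C), and they act on G protein-coupled receptors of matching names. In the brain, microglia carry the fractalkine receptor CX3CR1 and read CX3CL1, which neurons present on their surface, while CC ligands such as CCL2 and CCL3 are made by activated microglia and call in monocytes and lymphocytes. Endothelial and meningeal cells make CXCL12, and infiltrating leukocytes bring receptors of their own.

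*Cd47*, the targeted gene, gave 1688 in CD47 KO cells and 5816 in WT cells by its brightest probe set, and its 5 expressed probe sets had Log2 ratios (KO/WT) from -1.86 to -1.45. Whether they fall inside the deleted stretch is not known here. All animals are labelled male, but *Xist*, the RNA of X inactivation in females, had signals of 6530 in CD47 KO cells and 7070 in WT cells, which goes against that label in both pools. Of the Y-linked genes, *Eif2s3y* and *Kdm5d* were expressed on their brightest probe sets. *Eif2s3y* had 461 in CD47 KO cells and 189 in WT cells and *Kdm5d* had 307 in CD47 KO cells and 162 in WT cells, Log2 ratios of 1.29 and 0.92. The other expressed probe set of *Eif2s3y* had a Log2 ratio of -0.18. The remaining probe sets of *Kdm5d* and all those of *Uty*, also Y-linked, did not reach the array median on either array. The sexes of the pooled animals cannot be told from these signals, and their part in the differences below was not tested. Of 17 microglial markers with a probe set, all 17 were expressed in both pools, and *Csf1r*, the receptor gene for the growth factors of microglia, had 15949 in CD47 KO cells and 15185 in WT cells. All values below are signals computed by MAS5, on a linear scale, and brightness differs between probe sets of equal transcript level, so signals are compared between the pools and not between genes. A probe set is called expressed where its signal reached the median of its array (146 in CD47 KO and 161 in WT) on at least 1 array.

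Of the 41 genes, 25 were expressed on their brightest probe set, and 23 of these reached the median on both arrays. *Ccr7* reached it only in CD47 KO cells and *Ccl25* only in WT cells, so these 2 genes entered through the array on which they were brighter. Several members lay far above most probe sets of their array. *Ccl3*, *Ccl4*, *Ccl9*, *Ccl6* and *Ccl12* and the receptor gene *Cxcr4* all had signals of at least 4871 on both arrays, against a 75th percentile of all probe sets of 532 in CD47 KO and 541 in WT.

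**Figure D1:**
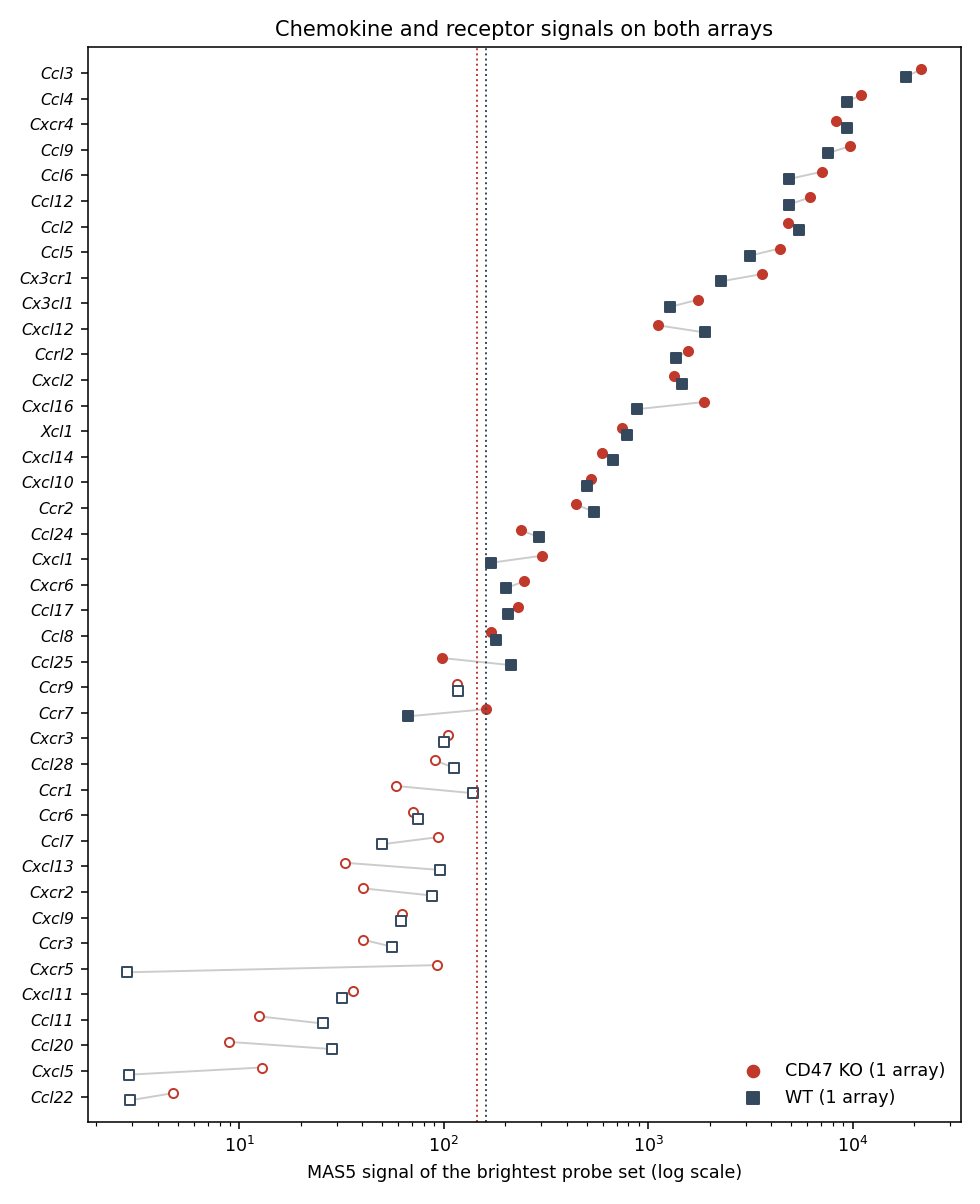
MAS5 signal (log scale) of the brightest probe set of each of the 41 genes in CD47 KO cells (red circles) and WT cells (dark squares), 1 array each. Open symbols mark the 16 genes that did not reach the array median (dotted lines, 146 in CD47 KO and 161 in WT) on either array. Genes are ordered by mean signal, with *Ccl3* at the top.

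Past 2-fold, *Cxcl16* and *Ccr7* were higher and *Ccl25* was lower in CD47 KO cells, which is 2 of 25 higher and 1 of 25 lower. Among all 11683 expressed genes, 3.53% were more than 2-fold higher, 5.41% more than 2-fold lower and 8.94% either, so the counts of the family lie near the background. For the 25 genes the Log2 ratio had a median of 0.19, with 15 higher and 10 lower, whereas the median of all expressed genes was 0.0033 and 50.3% of them were higher. Bright genes scattered less than dim ones, and more of them were higher. In the brightest 25% of expressed genes, 60.4% had a Log2 ratio over 0, the median was 0.05 and the middle 95% of genes lay between -0.59 and 0.54. Only 0.103% of these genes were more than 2-fold higher and 0.514% more than 2-fold lower, 0.616% in all. Of the 11 chemokine genes among them 8 were higher, with a median of 0.35, and none passed 2-fold. These ranges describe the scatter between 2 arrays and hold no spread between animals.

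**Figure D2:**
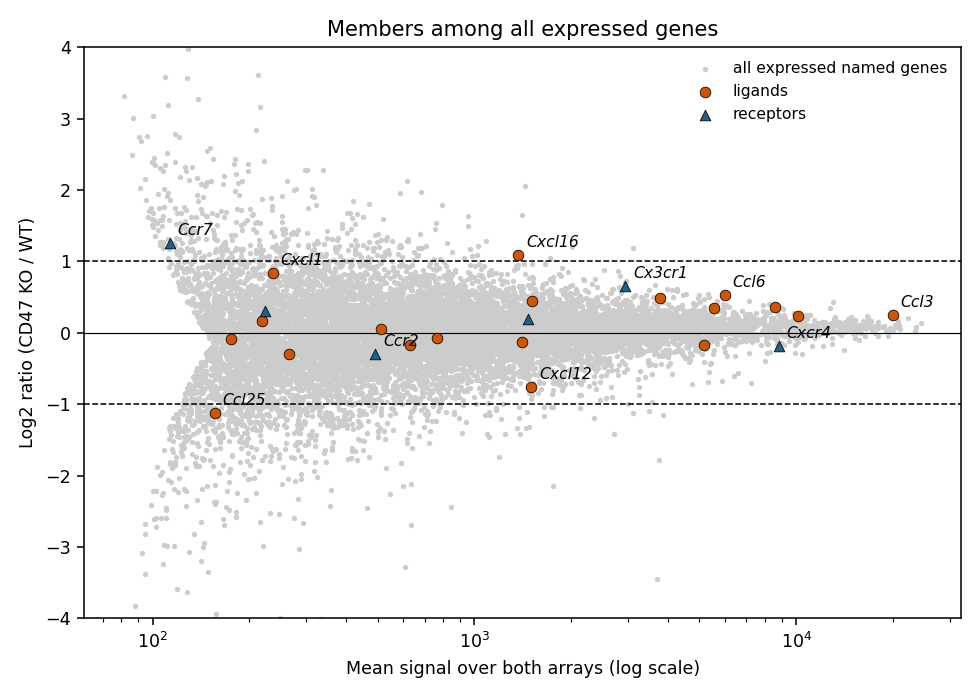
Log2 ratio (KO/WT) against the mean signal over both arrays (log scale) for all 11683 expressed genes (grey) with the chemokine ligands (orange circles) and receptors (blue triangles), each by its brightest probe set. Dashed lines mark 2-fold, 13 genes lie beyond the vertical axis, and the members at the right, such as *Ccl3* and *Ccl6*, lie mostly above 0 within a narrow cloud.

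Most of the inflammatory CC ligands had slightly higher signals in CD47 KO cells. *Ccl3*, whose protein attracts monocytes and T cells through CCR1, had a signal of 21694 in CD47 KO cells and 18268 in WT cells, a Log2 ratio of 0.25. *Ccl4*, its close relative and neighbour, had 10967 in CD47 KO cells and 9334 in WT cells, a Log2 ratio of 0.23. *Ccl9*, a ligand of CCR1 in the mouse, had 9687 in CD47 KO cells and 7550 in WT cells, and its probe sets gave 0.36 and 0.25. All 3 genes were higher in CD47 KO cells by less than 1.5-fold, and each ratio lay inside the middle 95% of genes of like brightness. *Ccl6*, another ligand of mouse CCR1, had 7085 in CD47 KO cells and 4893 in WT cells, with Log2 ratios of 0.53 and 0.31 on its probe sets. *Ccl5*, which T and NK cells make in large amounts, had 4393 in CD47 KO cells and 3137 in WT cells, a Log2 ratio of 0.49. Both stood near the upper end of that range. *Ccl12*, a mouse ligand of CCR2, had 6211 in CD47 KO cells and 4871 in WT cells, a Log2 ratio of 0.35. *Ccl2*, the main ligand of CCR2, went the other way, with 4852 in CD47 KO cells and 5451 in WT cells and a Log2 ratio of -0.17. The eosinophil attractant gene *Ccl24* had 238 in CD47 KO cells and 292 in WT cells, and *Ccl8*, which encodes a monocyte attractant, had 170 in CD47 KO cells and 180 in WT cells. Over the 9 expressed genes of the group the median Log2 ratio was 0.25, with 6 higher and 3 lower. *Ccl7* and the eosinophil attractant gene *Ccl11* did not reach the median on either array.

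Most of the higher genes of this group are neighbours, with *Ccl12* apart from them. In the RefSeq gene order of chromosome 11, *Ccl5*, *Ccl9*, *Ccl6*, *Ccl3* and *Ccl4* follow each other among the family members, with Log2 ratios of 0.49, 0.36, 0.53, 0.25 and 0.23, and *Ccl2*, *Ccl7*, *Ccl11*, *Ccl12* and *Ccl8* form a separate run, in which *Ccl2*, *Ccl12* and *Ccl8* had -0.17, 0.35 and -0.08 and the others were not expressed. RefSeq promoter windows of 300 bases were held for 31 of the 42 genes, 19 of them expressed. The windows of *Ccl3*, *Ccl6* and *Ccl9* are shown because these neighbours were all higher, and that of *Cxcl10* because it held motifs of 3 inducible factors while its ratio lay near 0. Capitals mark matches on either strand to NF-κB (GGGA and CC with any 4 bases between), AP-1 (TGANTCA), the interferon-stimulated response element (GAAA and GAAA with any 2 bases between) or PU.1, the macrophage factor (GAGGAA), and none overlap here. The windows lie in GRCm38.p6 at chr11:83649329-83649628 (*Ccl3*), chr11:83593038-83593337 (*Ccl6*), chr11:83578587-83578886 (*Ccl9*) and chr5:92348840-92349139 (*Cxcl10*), all on the minus strand, and are written 5′ to 3′ along the gene.
Ccl3: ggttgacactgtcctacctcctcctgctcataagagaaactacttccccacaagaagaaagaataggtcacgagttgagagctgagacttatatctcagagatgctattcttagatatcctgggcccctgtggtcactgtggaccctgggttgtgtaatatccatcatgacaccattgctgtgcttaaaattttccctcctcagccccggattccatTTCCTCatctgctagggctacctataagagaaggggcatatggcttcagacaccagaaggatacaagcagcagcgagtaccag
Ccl6: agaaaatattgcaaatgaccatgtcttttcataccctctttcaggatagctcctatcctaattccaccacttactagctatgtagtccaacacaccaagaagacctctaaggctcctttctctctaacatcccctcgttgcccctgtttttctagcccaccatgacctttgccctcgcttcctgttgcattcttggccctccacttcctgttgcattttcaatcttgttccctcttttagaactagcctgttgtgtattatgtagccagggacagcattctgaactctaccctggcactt
Ccl9: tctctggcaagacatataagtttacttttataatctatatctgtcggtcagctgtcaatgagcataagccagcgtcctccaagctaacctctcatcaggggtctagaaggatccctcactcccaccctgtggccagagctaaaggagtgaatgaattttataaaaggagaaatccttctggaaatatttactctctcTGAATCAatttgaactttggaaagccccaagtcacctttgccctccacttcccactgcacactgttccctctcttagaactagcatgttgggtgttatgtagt
Cxcl10: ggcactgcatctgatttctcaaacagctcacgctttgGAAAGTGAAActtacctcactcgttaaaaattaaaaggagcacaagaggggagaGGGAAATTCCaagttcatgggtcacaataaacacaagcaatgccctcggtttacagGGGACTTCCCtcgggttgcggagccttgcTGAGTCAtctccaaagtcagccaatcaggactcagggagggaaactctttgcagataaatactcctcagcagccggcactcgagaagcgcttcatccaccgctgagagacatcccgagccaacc

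The NF-κB letters were found in the windows of 4 of the 19 expressed genes, *Ccrl2*, *Cxcl1*, *Cxcl10* and *Cxcl2*, and in 20.7% of all 32851 promoter windows. The 31 genes had 35 windows. A gene is counted if any of its windows matched, whereas the percentages count windows, so the units differ. The PU.1 letters were in 6 of 19 and in 28.3% of all windows, the AP-1 letters in 2 and in 7.81%, and the interferon element in 2 and in 3.44%. The *Ccl3* window held the PU.1 letters, the *Ccl9* window held the AP-1 letters, and the *Ccl6* window held none of the 4 motifs. The *Cxcl10* window held the NF-κB letters at 2 places, AP-1 and the interferon element. A match gives the letters in the window and no binding.

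The interferon-inducible and neutrophil-attracting CXC ligands showed no common direction. *Cxcl10*, a ligand of CXCR3 on T and NK cells, had a signal of 523 in CD47 KO cells and 504 in WT cells, a Log2 ratio of 0.05. The other CXCR3 ligands *Cxcl9* and *Cxcl11* did not reach the median on either array. *Cxcl2*, a neutrophil attractant, had 1339 in CD47 KO cells and 1468 in WT cells, a Log2 ratio of -0.13. *Cxcl1*, of the same role, had 3 expressed probe sets that disagreed. The brightest had 304 in CD47 KO cells and 170 in WT cells, a Log2 ratio of 0.84, another had 306 in CD47 KO cells and 95.2 in WT cells, and the third had 80.2 in CD47 KO cells and 192 in WT cells, a Log2 ratio of -1.26. The first and the other higher probe set carry suffixes that Affymetrix gives to possible cross-hybridisation, so *Cxcl1* has no settled direction. *Cxcl5* was near the bottom of both arrays.

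Among the other CXC ligands, *Cxcl16* was higher and *Cxcl12* lower in CD47 KO cells. *Cxcl16*, a membrane-bound chemokine that is also a scavenger receptor for oxidised lipids, had a signal of 1865 in CD47 KO cells and 877 in WT cells, a 2.13-fold difference. Its other probe set had 1212 in CD47 KO cells and 717 in WT cells. The Log2 ratios were 1.09 and 0.76. The brighter probe set lay above the middle 95% of genes of like brightness (-0.91 to 0.81) and the other inside it. *Cxcl12*, which holds CXCR4-bearing cells in place, had 1116 in CD47 KO cells and 1890 in WT cells, and its Log2 ratios of -0.76 and -0.51 on the expressed probe sets were both negative. That of the brighter probe set lay below the middle 95% of genes of like brightness. *Cxcl14*, a chemokine of epithelia and neurons, had 592 in CD47 KO cells and 669 in WT cells on its brightest probe set and 578 in CD47 KO cells and 420 in WT cells on the other, so its probe sets pointed in opposite directions. *Cxcl13*, which draws B cells, was not expressed.

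Most markers of meningeal cells, of endothelium and of pericytes and smooth muscle were lower too. The 9 fibroblast and meningeal markers were all lower, with a median Log2 ratio of -0.95 and a summed signal of 6410 in CD47 KO cells and 9896 in WT cells. Of 11 endothelial markers 9 were lower, with a median of -0.38 and a summed signal of 15051 in CD47 KO cells and 17547 in WT cells. Of 9 expressed markers of pericytes and smooth muscle 6 were lower, with a median of -0.41 and sums of 9632 in CD47 KO cells and 13097 in WT cells. The other 3 of these were higher, with ratios up to 1.17. Astrocyte markers mostly went the other way, with 8 of 9 expressed higher and a median of 0.28. No listed marker of these cells was at 0. Their part in the *Cxcl12* difference was not tested.

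*Cx3cl1*, the gene of neuronal fractalkine, had 1750 in CD47 KO cells and 1279 in WT cells on its brightest probe set and 278 in CD47 KO cells and 193 in WT cells on the other expressed one, Log2 ratios of 0.45 and 0.52. Of the 10 neuronal markers 7 were higher, with a range from -0.47 to 0.64, a median of 0.09 and sums of 53026 in CD47 KO cells and 49505 in WT cells, and the *Cx3cl1* ratio lay within that range. The part of neuronal RNA in it was not tested. *Xcl1*, a C chemokine of NK and CD8 T cells, had 745 in CD47 KO cells and 784 in WT cells. *Ccl17*, a dendritic cell product, had 231 in CD47 KO cells and 206 in WT cells. *Ccl25*, a thymic and gut chemokine that acts on CCR9, had 98.0 in CD47 KO cells and 214 in WT cells, a Log2 ratio of -1.13, but it was dim, and 23.9% of the genes of its brightness passed 2-fold. *Ccl20*, *Ccl22* and *Ccl28*, which guide dendritic cells and lymphocytes, did not reach the median.

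Among the receptors, *Cx3cr1* had the largest difference of the bright genes. The brightest of its probe sets had 3599 in CD47 KO cells and 2280 in WT cells, and the other had 2834 in CD47 KO cells and 2443 in WT cells. The Log2 ratios were 0.66 and 0.21, and the higher one lay above the middle 95% of bright genes. All 17 microglial markers were higher as well, by 0.02 to 0.45 with a median of 0.16 and a summed signal of 175220 in CD47 KO cells and 154150 in WT cells, so the ratio of the brighter *Cx3cr1* probe set exceeded every one of them and that of the other lay among them. The brighter *Ccl6* probe set and *Ccl5*, at 0.53 and 0.49, also exceeded them, while *Ccl3* and *Ccl4* lay among the markers. Of 5 expressed NK cell markers 4 were higher, with a range from -0.02 to 0.54. The 8 expressed T cell markers ranged from -2.34 to 0.77, with 3 higher and 5 lower, and the *Ccl5* ratio lay within both ranges. The parts of microglial, NK cell and T cell RNA in these ratios were not tested. In the plot of marker lists the median of the chemokine family lies between those of the microglial and the astrocyte markers.

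*Cxcr4*, the CXCL12 receptor gene of leukocytes and microglia, had 8276 in CD47 KO cells and 9404 in WT cells, a Log2 ratio of -0.18. *Ccrl2*, an atypical receptor gene that presents chemerin, had 1558 in CD47 KO cells and 1367 in WT cells. *Ccr2*, the receptor gene of inflammatory monocytes, had 442 in CD47 KO cells and 542 in WT cells and a ratio of -0.29, and its other expressed probe set gave -0.51. Of the 5 monocyte markers with a probe set 4 were lower, with a median of -0.29 and a summed signal of 18599 in CD47 KO cells and 22636 in WT cells, and none was at 0. Their part in the *Ccr2* difference was not tested. *Cxcr6*, the CXCL16 receptor gene of activated T cells, had 247 in CD47 KO cells and 201 in WT cells. *Ccr7*, which leads dendritic cells and T cells to lymph nodes, had 160 in CD47 KO cells and 66.6 in WT cells, a Log2 ratio of 1.27 on its single probe set. It was dim as well, and 23.9% of the genes of its brightness passed 2-fold. Its ratio lay inside their middle 95%, from -2.05 to 1.77. Of 8 expressed T cell markers 3 were higher and 5 lower, and of 4 dendritic cell markers 1 was higher and 3 lower.

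Receptor genes of neutrophils, B cells and other leukocytes were mostly dim. *Ccr1*, *Ccr3*, *Ccr6*, *Ccr9*, *Cxcr2*, *Cxcr3* and *Cxcr5* did not reach the median on either array. The 16 genes that were not expressed had signals from 4.75 to 117 in CD47 KO cells and from 2.83 to 139 in WT cells. Detection calls are not used here, and no fold is given for signals of this level. *Cxcr2*, the main chemokine receptor gene of neutrophils, was among these genes, so no direction is given for it. Of 11 neutrophil markers 9 were lower and 2 higher, with a median Log2 ratio of -0.29 and a summed signal of 76985 in CD47 KO cells and 81708 in WT cells. A link of these markers to *Cxcr2* was not tested.

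**Figure D3:**
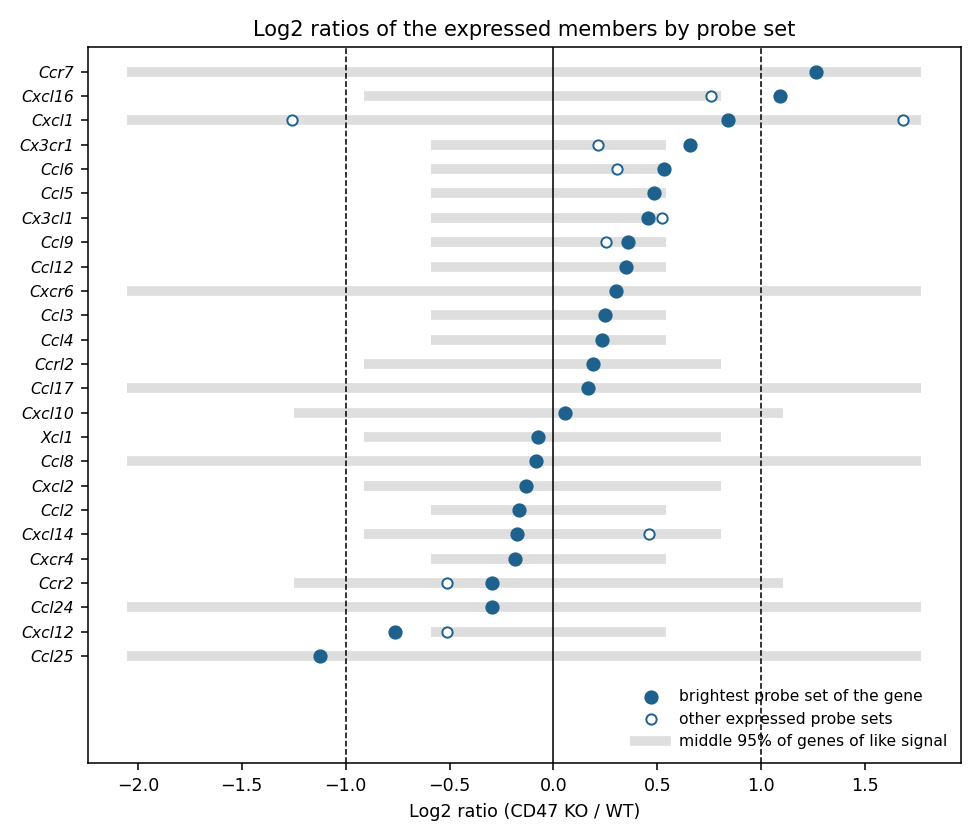
Log2 ratio (KO/WT) by probe set for the 25 expressed genes, with the brightest probe set of a gene filled and its other expressed ones open. Grey bars span the middle 95% of all expressed genes of the same brightness class (25% of them each), and *Cxcl16*, *Cx3cr1* and *Cxcl12* have filled points outside them.

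Of the 25 expressed genes, 3 lay outside the middle 95% of their brightness class, namely *Cxcl16* and *Cx3cr1* above and *Cxcl12* below, against 5.00% of all expressed genes by construction. Probe sets of a gene give the only internal measure of error. Of the 9 genes with more than 1 expressed probe set, 7 had ratios of a single sign and *Cxcl1* and *Cxcl14* did not. Over all genes the SD of a single probe set, taken from the difference between the brightest 2 of a gene, was 0.29 in the brightest class and 0.77 in the dimmest. On the brightest probe set, the differences of *Ccl5*, *Ccl6*, *Ccl9*, *Ccl12*, *Cx3cl1*, *Cx3cr1*, *Cxcl12* (SD 0.29 for each), *Cxcl16* (0.49), *Cxcl1*, *Ccr7* and *Ccl25* (0.77) exceeded the SD of their class, and those of the other expressed members did not. The share of all expressed genes past this SD was not counted, so the list does not set the family apart. *Cxcl1* is in it although its probe sets differed in sign. The second probe set of *Cx3cr1*, at 0.21, did not exceed it.

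Receptors were set beside their ligands in 24 known pairs of 12 receptors. Both partners were expressed in 5 pairs. In 4 of these the ratios had the same sign, *Cx3cr1* with *Cx3cl1* and *Cxcr6* with *Cxcl16* higher, and *Cxcr4* with *Cxcl12* and *Ccr2* with *Ccl2* lower in CD47 KO cells. *Ccl12* was higher while *Ccr2* was lower. The differences of *Cxcr6*, *Cxcr4*, *Ccr2* and *Ccl2* did not exceed the SD of their class. That SD comes from probe sets of a gene on the same arrays and holds no error between arrays or animals. It therefore settles the sign of no partner, whether or not the difference exceeded it. *Ccr2* enters with both *Ccl2* and *Ccl12*, so the pairs are not independent. The share of same signs among unrelated genes was not counted. Whether ligands and receptors moved together was not tested. For *Ccr1*, *Ccr3*, *Ccr6*, *Ccr7*, *Ccr9*, *Cxcr2*, *Cxcr3* and *Cxcr5* the receptor or every listed ligand was dim or without a probe set of its own.

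Genes that act downstream of the receptors had no common direction. Of 31 expressed genes for G proteins, PI3K, kinases and Rac regulators, 19 were higher and 12 lower, with a median Log2 ratio of 0.05. Past 2-fold was *Fgr*, a Src family kinase gene of myeloid cells, with 206 in CD47 KO cells and 425 in WT cells, a ratio of -1.04. *Gnai3*, an inhibitory G protein subunit gene, had 0.43, *Gng2* had 0.37 and the focal adhesion kinase relative *Ptk2b* had -0.43. Of 10 expressed genes of receptor desensitisation 5 were higher and 5 lower, with ratios from -0.80 to 0.72. *Arrb1*, which encodes an arrestin, had 937 in CD47 KO cells and 568 in WT cells, a ratio of 0.72. The receptor kinase genes *Grk6* and *Grk3* had -0.73 and -0.53.

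Genes induced by NF-κB, the factor that drives many inflammatory chemokines, had a median Log2 ratio of 0.13 over 19 expressed, with 11 higher and 8 lower. Past 2-fold, 2 were higher and 1 lower, beside 3.53% and 5.41% of all expressed genes. The higher ones, *Tnf* with 365 in CD47 KO cells and 150 in WT cells and *Relb* with 171 in CD47 KO cells and 85.3 in WT cells, reached the median only in CD47 KO cells. The lower one, *Nfkbie*, had 156 in CD47 KO cells and 338 in WT cells, a ratio of -1.12. *Cd83*, a marker of activated antigen-presenting cells, had 0.54, *Tnfaip2* had 0.42 and *Nfkb2*, a subunit gene, had 0.39. The 20 genes of tissue dissociation and the immediate early response, which enzymatic release of microglia can induce along with *Ccl3* and *Ccl4*, were all expressed. All but *Junb*, with 384 in CD47 KO cells and 576 in WT cells, reached the 75th percentile on both arrays. The summed signal was 111692 in CD47 KO cells and 106547 in WT cells. Of these 20 genes 11 were higher and 9 lower, with a median of 0.06 and none past 2-fold. *Junb*, *Nr4a1* and *Fosb*, genes of early transcription factors, had -0.58, -0.40 and -0.34. The part of dissociation in the chemokine signals was not tested. The 8 expressed interferon-inducible genes had a median of -0.23, with 3 higher and 5 lower. *Rsad2*, an antiviral gene, had 0.50 and *Igtp* had -0.02.

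**Figure D4:**
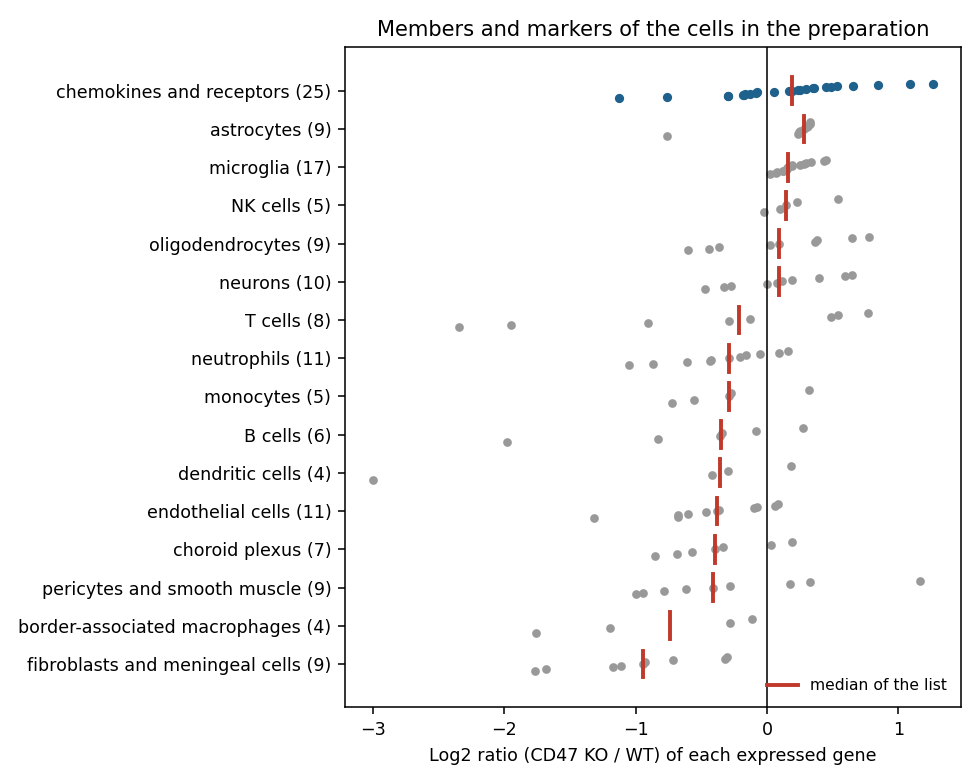
Log2 ratio (KO/WT) of each expressed gene of the chemokine family (top, blue) and of marker lists for the cell types of brain, vessels, meninges and blood (grey), with the number of genes in parentheses and the median as a red bar. The family has a median of 0.19, microglial markers all lie above 0 and fibroblast and meningeal markers all lie below it.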

How the data were processed

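RNA of brain mononuclear cells, pooled by genotype, was hybridised to Affymetrix Mouse Genome 430 2.0 arrays, 1 for CD47 KO and 1 for WT. The deposited values are MAS5 signal intensity per probe set on a linear scale, which the authors made with the Expression Console Software, version not given in the sources used here. MAS5 is also named in the submitters' processing notes. After removal of 2% of values at each end both arrays had a mean of 500.002, so they are taken as scaled by a common factor. Precision is limited by there being 1 array per genotype. Of 45101 probe sets, 34958 have 1 gene symbol, 932 have several and 9211 have no name here, and symbols were updated through gene identifiers to RefSeq GRCm38.p6, where 34754 matched.

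Each gene was read by its probe set of highest mean signal, and the Log2 ratio (KO/WT) was taken with no offset. No test was possible, and 2-fold served as the call. The text names every member, with both signals where expressed, and up to 3 genes of each pathway list with the largest absolute ratio among those at or above the 75th percentile. *Ackr3*, *Ackr4* and *Ppbp* were named outside that rule. *Csf1r*, *Mrc1*, *Tnf*, *Relb*, *Nfkbie*, *Fgr* and the sex-linked genes were named after their values were seen. The members and lists were chosen with earlier results of these data known. The calculation was tested on simulated arrays. The counts past 2-fold were recomputed under 11 alternatives and the medians and ratios of the members under up to 10 of them. Lists, pairs, ranges and motifs were not. Python 3.11.15, numpy 2.4.6, pandas 2.3.3, statsmodels 0.14.6 and matplotlib 3.10.9 were used.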

Additional observations from a re-analysis of the deposited data

How the results depend on the processing

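The counts past 2-fold, the medians and the ratios of the 25 expressed genes were recomputed with another signal threshold, normalization, treatment of low signals or choice of probe set. Of these genes 20 kept the sign of their Log2 ratio in every setting that left them expressed, and *Ccl8*, *Cxcl1*, *Cxcl2*, *Cxcl14* and *Xcl1* did not. *Cxcl16* ranged from 0.92 to 1.23, *Cx3cr1* from 0.44 to 0.80, *Cxcl12* from -0.78 to -0.62 and *Ccl3* from 0.15 to 0.39. *Cxcl1* had -1.26 without probe sets of the suffixes _x_at and _s_at. Centring each array on its median moved all expressed genes to a median of 0.14, the family to 0.33 and its ligands to 0.31, and the share of all calls that were higher was 55.5% in place of 39.5%. The family median was 0.054 with no threshold. The receptor median, 0.24 as reported, was -0.0070 with no threshold and 0.0017 with the 75th percentile.

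The number of genes more than 2-fold higher was 4 with no threshold. It was 1 with the 75th percentile as threshold, with the median required on both arrays and with the 25th percentile of all signals added, *Cxcl16* each time, and 1 (*Ccr7*) with the mean over probe sets, where *Cxcl16* had 0.92. The number more than 2-fold lower was 6 with no threshold and 2 without the suffixed probe sets. It was 0 with the 75th percentile, with the median on both arrays, after centring, quantile or loess normalization and with the constant added. The stricter thresholds left *Ccl25* out, and the normalizations and the constant left it short of 2-fold, at -0.88 with the constant. No paired analysis was possible because each genotype has 1 array. No replicate could be left out.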

Other observations

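Other genes of the chemokine system lie outside the list of members. Of 16 with a probe set of their own, 7 were expressed, 4 higher and 3 lower. *Ackr1*, which encodes a decoy receptor of venules and red cells, had a signal of 625 in CD47 KO cells and 430 in WT cells, a Log2 ratio of 0.54. *Cmklr1*, the chemerin receptor gene, had 600 in CD47 KO cells and 433 in WT cells, a ratio of 0.47, beside 0.19 for *Ccrl2*, which presents the same ligand. *Ackr3*, the scavenger receptor gene for CXCL12, had 1078 in CD47 KO cells and 1001 in WT cells, while *Ackr4* had 1106 in CD47 KO cells and 1528 in WT cells. The platelet chemokine genes *Pf4* and *Ppbp* were lower, *Pf4* with 888 in CD47 KO cells and 1229 in WT cells and *Ppbp* with 157 in CD47 KO cells and 452 in WT cells. *Pf4* is also made by border-associated macrophages. Of 8 listed markers of these cells, 4 were expressed and the other 4 did not reach the median on either array. The 4 expressed were all lower, with Log2 ratios from -1.76 to -0.12 and a median of -0.74. Among them *Mrc1* had 228 in CD47 KO cells and 522 in WT cells. The part of these cells in the *Pf4* difference was not tested. *Ackr1*, *Ackr3*, *Ackr4*, *Cmklr1* and *Pf4* were less than 2-fold apart.

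Probe sets that the annotation gives to several genes were not counted. That shared by *Ccl19* and its relatives had 142 in CD47 KO cells and 217 in WT cells, a Log2 ratio of -0.61, and that shared by the *Ccl21* genes had 530 in CD47 KO cells and 588 in WT cells.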
